A study of Mus musculus with 4 samples.

Results

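The 10 genes examined here, of 17259 in the deposited table, mark tissue macrophages or code for complement recognition proteins and were measured in brown adipose tissue of mice. They are Lyz2, Cd68, Ctss, C1qa, C1qb, C1qc, Fcna, Mrc1, Adgre1 and Cd163, and each was found by its symbol. They were chosen by their identity with their normalised counts in isolated mitochondria and in BAT-total already known, Fcna because it was seen almost only in the mitochondria. The difference between these fractions is therefore given for them as a description with no test. The tissue came from wild-type mice, and the labels name no other allele, agent or age. BAT-Mito are 2 libraries of RNA from isolated mitochondria and BAT-total are 2 libraries whose treatment label names the tissue without its mitochondria. The study speaks of total lysates for the second group, so BAT-total may hold whole tissue. The labels do not say whether replicates came from separate animals, so the spread between them may be technical, and mitochondria were prepared from whole tissue, which holds many cell types.

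Macrophages are resident phagocytes of adipose tissue that clear dead cells and debris and recycle lipid and iron. Complement is a cascade of plasma proteins, most of them made by hepatocytes, which is started when recognition proteins bind to a surface. The 3 chains of C1q start the classical route and are, unlike most of the cascade, made mainly by macrophages. Ficolin A, the product of Fcna, binds sugars on microbes and starts the lectin route, and it too is made by tissue macrophages. Apart from the adhesion receptor of Adgre1, the haemoglobin scavenger receptor of Cd163 and the mannose receptor of Mrc1, which sit at the plasma membrane, the members code for secreted or lysosomal proteins. None of these 10 genes codes for a known mitochondrial protein.

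Myeloid promoters often hold the purine-rich word bound by the factor PU.1, and the starts of the genes were searched for GAGGAA on either strand. RefSeq promoters of build GRCm38.p6 were at hand for 8 of the 10 genes, and C1qa and Adgre1 had no entry. The 3 runs below are shown because they belong to the gene that differed most between the fractions, to the receptor with the most reads and to a C1q chain. They read 5′ to 3′ towards the gene, stop before the gene begins in the deposited annotation, and have the word or its reverse complement in capitals. The Fcna run is chr2:25628031-25628224 on the minus strand, the Mrc1 run is chr2:14229164-14229391 on the plus strand, and the C1qb run is chr4:136886201-136886450 on the minus strand.
Fcna: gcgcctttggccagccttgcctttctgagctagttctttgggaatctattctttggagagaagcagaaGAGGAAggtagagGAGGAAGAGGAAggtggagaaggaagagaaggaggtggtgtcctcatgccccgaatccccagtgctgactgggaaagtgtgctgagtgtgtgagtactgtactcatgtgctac
Mrc1: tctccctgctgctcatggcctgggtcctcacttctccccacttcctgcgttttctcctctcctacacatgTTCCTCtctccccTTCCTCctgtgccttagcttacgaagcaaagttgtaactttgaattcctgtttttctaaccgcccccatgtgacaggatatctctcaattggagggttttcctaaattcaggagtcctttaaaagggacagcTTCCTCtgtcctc
C1qb: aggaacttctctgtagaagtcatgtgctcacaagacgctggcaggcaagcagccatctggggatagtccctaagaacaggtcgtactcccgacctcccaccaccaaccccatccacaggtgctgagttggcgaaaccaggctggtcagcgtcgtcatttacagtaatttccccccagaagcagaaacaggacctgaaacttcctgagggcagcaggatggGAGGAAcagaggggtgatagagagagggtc

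In the 250 bases before the RefSeq start, Fcna held 3 matches, which began 182, 169 and 163 bases upstream. Mrc1 also held 3, and C1qb, C1qc, Cd68 and Ctss held 1 each. Lyz2 and Cd163 held none. The word was therefore present in 6 of 8 promoters (75.0%), against 7639 of 32851 RefSeq promoters (23.3%). A match is a run of letters and was not tested as a binding site.

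The values are normalised counts, that is, gene counts divided by a size factor for each library and rounded by the authors. Whole reads could be recovered in BAT-Mito, with 8.32 units to a read in replicate 1 and 6.90 in the other, out of 26288871 and 24910434 reads. Transcripts of the mitochondrial genome took 95.3% and 95.5% of these, and 45860 and 55913 reads fell on 12790 nuclear protein-coding genes, which serve as the reference below. The members are thus known in BAT-Mito from 0 to 18 reads each, and a count of 0 there allows up to 3 reads, or 25.0 and 20.7 units. In BAT-total mitochondrial transcripts took 51.1% and 59.3% of the normalised total. Every small whole number occurred there, and how many reads stand behind 1 unit is unknown. Ucp1, which defines brown adipocytes, was present in all libraries, with 1290 and 3554 units in BAT-Mito and 4819 and 4185 in BAT-total. Replicate 1 of BAT-Mito, and at far lower levels replicate 1 of BAT-total, stood apart by transcripts of hepatocyte genes, given below. The floor and all intervals below cover counting error only.

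Fcna had nearly the same value in both mitochondrial libraries and almost none in BAT-total. The gene (chr2:25624666-25628030, minus strand) had normalised counts of 33 and 35 in BAT-Mito, from 4 and 5 reads, and of 0 and 1 in BAT-total. The groups did not overlap, with means of 34.0 ± 1.41 and 0.50 ± 0.707 (SD, n = 2 each). On the log2(normalised count + 1) scale, used for every fold change here, the difference was 4.63 with a standard error of 0.56. With a pseudocount of 10 it was 2.07, since the BAT-total values lie at the bottom of the scale, and no counting interval could be given without the reads of BAT-total. An antisense gene, Fcnaos, shares a short stretch of exonic sequence with Fcna, 0.51% of the 50-base words of Fcna. Whether counting used the strand is not given in the sources used here. If it did not, reads that overlap both genes would have been left out.

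The 3 genes of the C1q chains lie close together on the minus strand of chromosome 4, C1qb at chr4:136880129-136886187, C1qc at chr4:136889804-136893065 and C1qa at chr4:136895917-136898803. C1qa had normalised counts of 17 and 83 in BAT-Mito (2 and 12 reads) and of 10 and 8 in BAT-total. C1qb had 67 and 14 in BAT-Mito (8 and 2 reads) and 9 and 9 in BAT-total. C1qc had 33 and 41 in BAT-Mito (4 and 6 reads) and 12 and 3 in BAT-total. All 3 were higher in both BAT-Mito libraries than in both BAT-total libraries, but the replicates of C1qa and of C1qb lay far apart in opposite directions. The log2 differences were 1.97 with a standard error of 0.95 for C1qa, 1.68 with 0.93 for C1qb and 2.39 with 0.78 for C1qc. Without BAT-Mito replicate 2 the value of C1qa was 0.86 and that of C1qb 2.77, and without BAT-Mito replicate 1 they were 3.08 and 0.58. That of C1qc was 1.54 without BAT-total replicate 2 and 3.24 without BAT-total replicate 1. In BAT-Mito the sum of the chains varied less between replicates, relative to its mean, than any one of them, with 127.5 ± 14.8 units in BAT-Mito and 25.5 ± 7.78 in BAT-total (SD, n = 2 each), a ratio of 5.0.

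**Figure D1:**
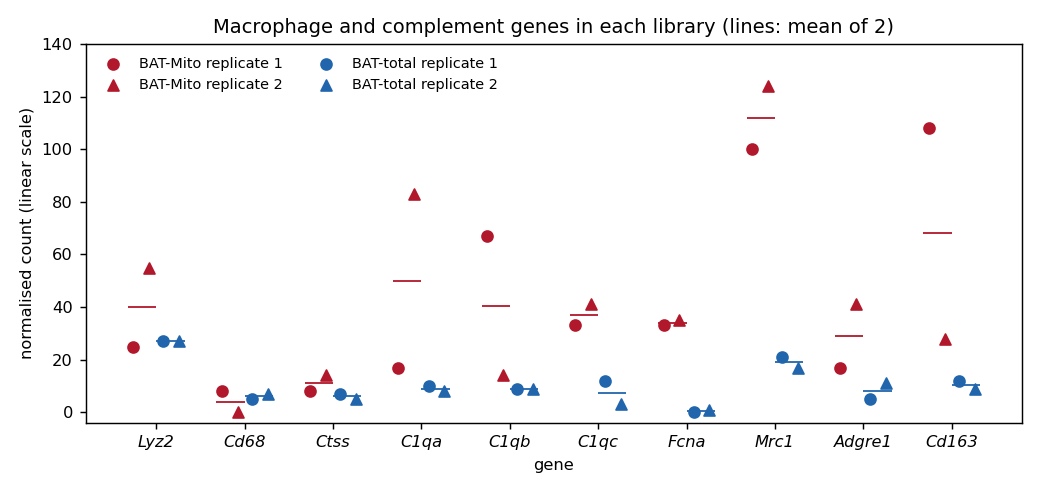
Normalised counts (linear axis) of the 10 genes in each library, with red marks for BAT-Mito, blue marks for BAT-total, circles for replicate 1, triangles for replicate 2 and lines for the mean of 2. Both red marks lie above both blue marks in 8 genes, not in Lyz2 and Cd68, and the red marks of C1qa, C1qb and Cd163 lie far apart.

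The scavenging receptors held the most reads. Mrc1 (chr2:14229392-14332057, plus strand) had normalised counts of 100 and 124 in BAT-Mito (12 and 18 reads) against 21 and 17 in BAT-total. It was the member with the smallest standard error, 0.44, around a log2 difference of 2.50, which ranged from 2.34 to 2.65 when 1 library was left out. Cd163 (chr6:124304656-124330527, plus strand) had 108 and 28 in BAT-Mito (13 and 4 reads) against 12 and 9 in BAT-total. Its log2 difference of 2.30 with a standard error of 0.85 became 1.35 without BAT-Mito replicate 1 and 3.26 without BAT-Mito replicate 2.

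Adgre1, which codes for the F4/80 antigen used to sort mouse macrophages, had 17 and 41 in BAT-Mito (2 and 6 reads) against 5 and 11 in BAT-total (chr17:57358691-57483527, plus strand). The groups did not overlap, and the log2 difference was 1.70 with a standard error of 0.73, or 1.08 without BAT-Mito replicate 2. Lyz2 (chr10:117277331-117282321, minus strand), a lysozyme that breaks bacterial cell walls and is abundant in phagocytes, did not separate the fractions. Its values were 25 and 55 in BAT-Mito (3 and 8 reads) and 27 and 27 in BAT-total, so the groups overlapped. The log2 difference of 0.45 with a standard error of 0.59 turned to -0.11 without BAT-Mito replicate 2. Of its 50-base words, 15.4% also occur in the neighbouring lysozyme Lyz1, and reads that map to both genes were left out of counting.

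The remaining 2 members code for a lysosomal membrane glycoprotein and a lysosomal protease and lay at or under the floor in both mitochondrial libraries. Cd68 (chr11:69664213-69666153, minus strand) had 8 and 0 in BAT-Mito (1 and 0 reads) and 5 and 7 in BAT-total. Ctss (chr3:95526786-95556403, plus strand) had 8 and 14 in BAT-Mito (1 and 2 reads) and 7 and 5 in BAT-total. With values this low no fold is read from them, and a difference between the fractions was not detectable at this depth.

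Over the 10 members, both BAT-Mito libraries exceeded both BAT-total libraries in 8 genes, among them Ctss with 3 reads in all. The same held for 5.20% of all genes in the table and for 8.59% of the 8215 genes whose normalised counts averaged 10 or more across libraries, the minimum set for testing. Cd68 and Ctss fell under that minimum, and C1qa, C1qb, C1qc, Fcna and Adgre1, with BAT-total means under 10, reached it only through BAT-Mito. Of the genes tested, limma called 0.803% higher in BAT-Mito and 4.41% lower, edgeR 1.64% and 4.02%, and DESeq2 2.30% and 2.87%. Each tool called 1 of the 8 members that reached the minimum higher, and the one limma called was called by neither edgeR nor DESeq2. Since this contrast chose the members, nothing is read from these counts. The median log2 difference was 1.83 for the 10 members and -1.23 for all genes tested, a gap of 3.06, with the fitted values of Cd68 and Ctss included. The summed members came to 416 and 435 units in BAT-Mito and to 108 and 97 in BAT-total, with means of 425.5 ± 13.4 and 102.5 ± 7.78 (SD, n = 2 each) and a ratio of 4.15. Without Fcna the ratio was 3.84. BAT-Mito is a preparation of mitochondria from bulk tissue, so these ratios give neither a share of macrophages nor an amount of RNA per macrophage. Their cause was not tested.

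**Figure D2:**
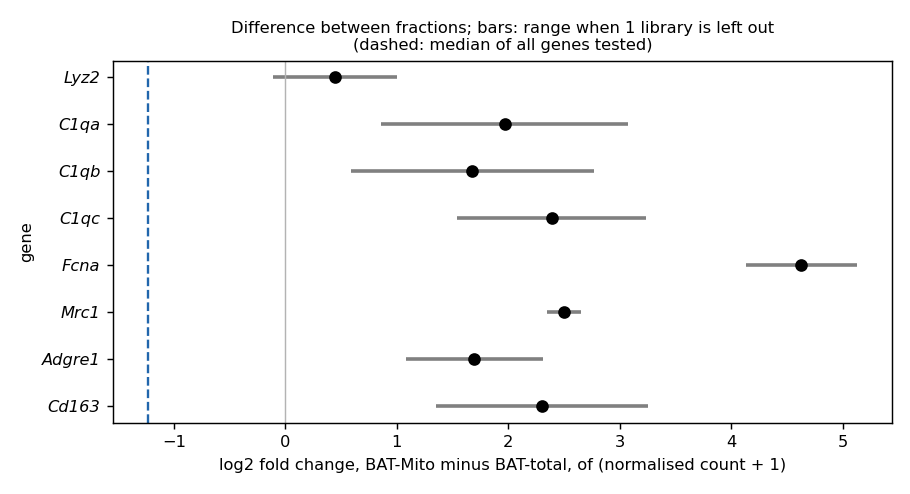
Log2 fold change between BAT-Mito and BAT-total of log2(normalised count + 1) for the 8 members that reached the minimum for testing, with grey bars for the range when each of the 4 libraries is left out in turn and a dashed line at the median of all genes tested, -1.23. Fcna stands apart at 4.63, Mrc1 has the shortest bar, and the bar of Lyz2 crosses 0.

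Levels of different genes were compared per kilobase of exon. In BAT-Mito the mean levels in units per kilobase ran from C1qa (48.1), C1qb (37.2) and Lyz2 (30.4) through Fcna (24.7), C1qc (19.2), Mrc1 (17.6) and Cd163 (12.5) to Adgre1 (8.96), Ctss (8.10) and Cd68 (3.18). No neighbours in that order were separated beyond the spread of their replicates, except that Fcna, at 24.0 and 25.5 units per kilobase, lay above C1qc, at 17.1 and 21.2, although these rest on 9 and 10 reads in all. In BAT-total the order was led by Lyz2 at 20.5 units per kilobase, followed by C1qa (8.65), C1qb (8.27), Cd68 (4.77), Ctss (4.42), C1qc (3.88), Mrc1 (2.98), Adgre1 (2.47) and Cd163 (1.92). Fcna came last, at 0.364 units per kilobase. There Lyz2 lay above C1qa, C1qb above Cd68 and Cd163 above Fcna in both libraries, and the other neighbours overlapped. In BAT-Mito C1qa ranged from 16.3 to 79.8 units per kilobase and Lyz2 from 19.0 to 41.8.

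The mitochondrial replicates were compared next, by reads relative to the nuclear reference and with exact 95% counting intervals. This compares 2 libraries, not conditions. The members together had 50 reads in replicate 1 and 63 in replicate 2, a ratio of 0.968 with an interval from 0.654 to 1.43. Single members split both ways. Cd163 was higher in replicate 1, by a ratio of 3.96 (1.22 to 16.7), and C1qa was lower, by a ratio of 0.203 (0.0221 to 0.913). The intervals of C1qb (4.88, from 0.973 to 47.1), Mrc1 (0.813, from 0.357 to 1.78), C1qc (0.813, from 0.169 to 3.43) and Lyz2 (0.457, from 0.0781 to 1.90) held 1. Thus 2 of the 6 members with at least 10 reads in both libraries together passed the counting error, against 37.2% of 2651 genes. Fcna, with 9 reads, had a ratio of 0.975 (0.194 to 4.53). With all reads of the library as the reference, only C1qa of the 6 passed, against 41.9% of the 2651 genes. With the median ratio of the genes as the reference, Cd163 and C1qb passed, both higher in replicate 1, and C1qa did not, against 36.7%. Between the BAT-total replicates the summed members had a ratio of 1.09, with no interval.

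Other genes of complement did not share this balance. A wider list of complement components, regulators and receptors held 46 genes, of which 36 were in the table. Their reads in BAT-Mito were 642 in replicate 1 and 235 in replicate 2, a ratio of 3.33 with an interval from 2.86 to 3.88, which lies wholly above that of the members. With all reads as the reference the intervals were 2.23 to 3.02 for these genes and 0.508 to 1.11 for the members. Of the 16 genes with at least 10 reads, 13 were higher in replicate 1 and 1 was lower, against 17.4% and 19.8% of the 2651 genes.

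By role, the classical and lectin components had 108 reads in replicate 1 and 18 in replicate 2, the terminal components that form the membrane pore had 82 and 15, and the regulators had 138 and 37. The receptors had 3 and 9. C4b, which is cleaved by C1s, had 44 and 6 reads, and its near-identical copy C4a makes this count uncertain. Mbl1, a mannose-binding lectin that starts the same route as ficolin A, had 11 and 1. C9, the pore subunit, had 21 and 0, and Vtn, which binds the pore complex in plasma, had 40 and 8. C3, the central component, had 304 and 108 reads (ratio 3.43, from 2.75 to 4.32). The gene lower in replicate 1 was Cfd, the adipocyte protease adipsin, with 6 and 48 reads (ratio 0.152, from 0.0533 to 0.357). Serping1, the inhibitor of C1r and C1s, had 13 and 17, and C1s1 had 8 and 6.

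**Figure D3:**
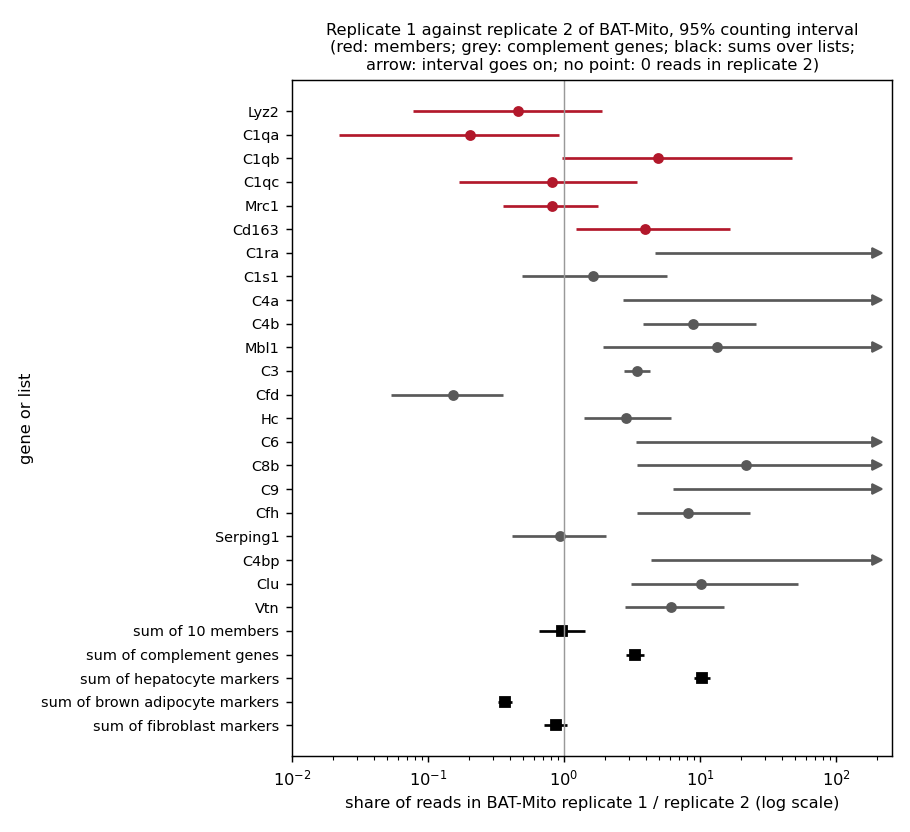
Share of reads in BAT-Mito replicate 1 over replicate 2 (log axis, 1 marked by a line) with 95% counting intervals, for the members (red) and listed complement genes (grey) with at least 10 reads in both libraries together and for sums over lists (black squares). The members lie on both sides of 1 and their sum lies at 0.968, while the sum of the other complement genes lies at 3.33, that of hepatocyte markers at 10.3 and that of brown adipocyte markers at 0.370.

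Between the fractions, limma called none of the 24 complement genes tested (0 higher, 0 lower, with 4 higher and 1 lower at an unadjusted p under 0.05, against 263 and 1225 of the 8215 genes). By edgeR 1 was called higher (1.64% of all genes tested) and by DESeq2 3 were (2.30%). The gene called by edgeR was Vtn (quasi-likelihood test with Benjamini-Hochberg adjustment, adjusted p = 0.0397), with normalised counts of 333 and 55 in BAT-Mito against 14 and 7 in BAT-total. The median log2 difference of the 36 complement genes in the table was 0.54, and it was -0.50 without BAT-Mito replicate 1 and 2.0 without BAT-Mito replicate 2. For the 10 members the median was 1.83 without the first and 1.66 without the second.

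Hepatocyte markers moved with the complement genes. The 17 hepatocyte markers in the table, among them Alb and Apoa1, had 1949 reads in replicate 1 and 230 in replicate 2. The ratio was 10.3 (9.01 to 11.9), and 16 of 17 were higher in replicate 1, against 17.4% of the 2651 genes. Between the fractions limma called 0 of them higher, edgeR 12 and DESeq2 12, against 0.803%, 1.64% and 2.30% of all genes tested. In 15 of them both BAT-Mito libraries exceeded both BAT-total libraries, against 8.59% of the genes tested. Per 1000000 units of the nuclear reference the 17 markers came to 42505 and 4106 in BAT-Mito and to 957 and 437 in BAT-total. The members came to 1090 and 1125 in BAT-Mito and to 168 and 153 in BAT-total. Hp and Cyp2e1 were then left out, a choice made after their values were seen. The other hepatocyte markers came to 39496 and 3142 in BAT-Mito and to 398 and 19.0 in BAT-total. Replicate 1 was the higher library in both fractions with or without these genes. The part of hepatocyte transcripts in the values of the members was not tested. Of 5 listed markers of the liver macrophage 2 were in the table, Marco with 1 read and Timd4 with 0 reads in BAT-Mito, both under the floor, and Clec4f, Vsig4 and Cd5l were not analysed here. Stab2, a scavenger receptor of liver sinusoidal endothelium, had 25 and 14 units in BAT-Mito (3 and 2 reads) against 2 and 0 in BAT-total (limma adjusted p = 0.186). Brown adipocyte markers leaned the other way, with 350 and 1152 reads (ratio 0.370, from 0.328 to 0.418), and fibroblast markers had 185 and 260 reads (ratio 0.868, from 0.715 to 1.05).

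**Figure D4:**
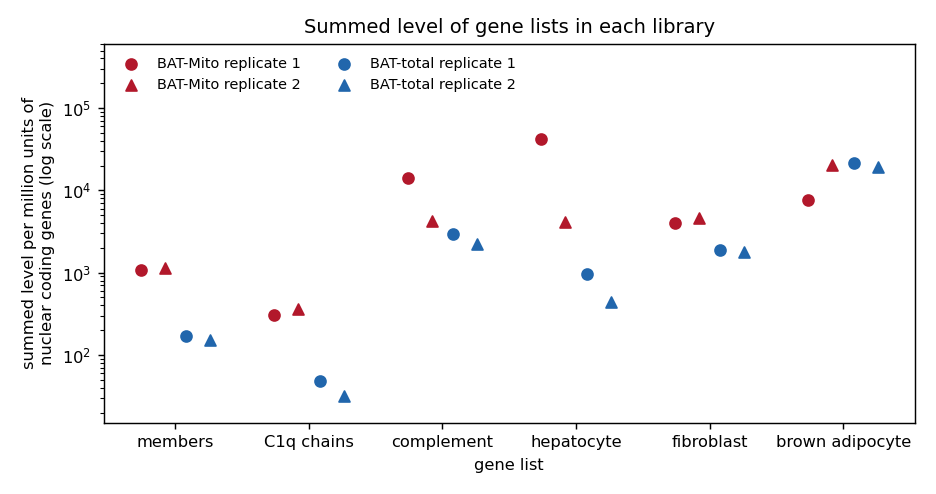
Summed level of gene lists per 1000000 units of nuclear protein-coding genes (log axis) in each library, with red marks for BAT-Mito, blue marks for BAT-total, circles for replicate 1 and triangles for replicate 2. The members reach 1090 and 1125 in BAT-Mito against 168 and 153 in BAT-total, while hepatocyte markers reach 42505 and 4106 in BAT-Mito.

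Other macrophage genes gave a mixed picture. A list of 99 further macrophage genes, of which 84 were in the table and 34 could be tested, had 0 genes called higher and 1 called lower by limma (6 higher and 1 lower at an unadjusted p under 0.05, against 263 and 1225 of the 8215 genes). Over all genes, the shares called by limma were 0.803% higher and 4.41% lower. The median log2 difference was 0.26 for those tested (0.92 without BAT-Mito replicate 1 and 0.48 without BAT-Mito replicate 2) and -0.14 for those in the table, against -1.23 for all genes tested. The gene called lower was Lyn, a kinase of the inner plasma membrane, with 0 and 0 in BAT-Mito against 25 and 35 in BAT-total (limma adjusted p = 0.0249), a difference that edgeR did not call (adjusted p = 0.0707). Its 0 reads in both BAT-Mito libraries allow up to 25.0 and 20.7 units, close to the lower BAT-total value, and 359 of the 362 genes called lower over the whole table had 0 reads in both as well.

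The list was split by where the protein is made. Genes whose products enter the secretory route, as those of all 10 members do, had 916 reads in replicate 1 and 391 in replicate 2 of BAT-Mito. Apoe, a lipoprotein that hepatocytes also make, gave 670 and 180 of them. Its normalised counts were 5576 and 1242 in BAT-Mito against 459 and 270 in BAT-total, a log2 difference of 2.90 (limma adjusted p = 0.276, edgeR adjusted p = 0.0311). The lysosomal genes with the most reads lay lower in BAT-Mito, Psap with 433 and 373 against 898 and 717, Ctsb with 533 and 242 against 633 and 539 and Ctsd with 125 and 117 against 237 and 279, and limma did not call them.

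Genes whose products are made in the cytosol had fewer reads, 26 in replicate 1 and 79 in replicate 2, a ratio of 0.401 (0.247 to 0.632). Of the 33 in the table, 12 had 0 reads in both BAT-Mito libraries, and 8 were higher in both BAT-Mito libraries than in both BAT-total libraries, as were 14 of the 51 secretory-route genes and 5.20% of all genes. The median log2 difference of the 33 was -0.21, but 0.55 without BAT-Mito replicate 1 and -1.29 without BAT-Mito replicate 2. Dock2, a regulator of leukocyte migration, had 42 and 48 in BAT-Mito against 3 and 10 in BAT-total (limma adjusted p = 0.210). Plek had 8 and 83 against 1 and 3, and Lcp1 had 17 and 62 against 12 and 11. Of the 12 cytosolic or nuclear genes tested, limma called 0 higher and Lyn lower (0.803% and 4.41% of all genes tested), edgeR called 0 higher (1.64%) and DESeq2 called 1 higher (2.30%). Their median log2 difference was 0.62, but 2.32 without BAT-Mito replicate 1 and -0.67 without BAT-Mito replicate 2. For the 22 secretory-route genes tested it was 0.24, but -0.21 without the first and 0.85 without the second. A difference between these 2 groups of genes was not tested.

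Markers of other blood cells were counted as well. The 5 erythrocyte genes had 30 and 92 reads in BAT-Mito (ratio 0.398, from 0.254 to 0.606), and 296 and 624 units in BAT-total, the lower value being that of replicate 1 in both fractions. Of them 0 were called higher by limma, edgeR or DESeq2, against 0.803%, 1.64% and 2.30% of all genes tested. Markers of neutrophils, mast cells, T cells and B cells had 0 reads in both BAT-Mito libraries, which allows up to 3 reads in each library. The summed BAT-total values of each of these lists lay between 0 and 27 units, about what 0 reads allow, so no difference was detectable at this depth. The dendritic cell markers had 3 reads. Zbtb46, a transcription factor of dendritic cells and endothelium, had 0 and 0 in BAT-Mito against 47 and 60 in BAT-total and was called lower by limma (adjusted p = 0.0249) and by edgeR (adjusted p = 0.0379).

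The genes most like Fcna were sought among 7649 nuclear protein-coding genes that reached the minimum for testing. Likeness was the Euclidean distance between centred log2(normalised count + 1) values over the 4 libraries. The search used the contrast that chose Fcna, so its outcome is a description only. The nearest was Cox6a2, a subunit of respiratory complex IV, with 25 and 41 in BAT-Mito and 0 and 1 in BAT-total, at a distance of 0.44. It was followed by Hal, a histidine-degrading enzyme of liver and skin, at 0.89, with 100 and 97 against 4 and 10. Ang, a secreted ribonuclease, lay at 1.11, the receptor subunit gene Gabra2 at 1.20 and Baat, which conjugates bile acids, at 1.29. None of the 5 is a macrophage gene in the lists used here, but listed macrophage genes under the minimum were not searched. All 5 had 14 reads or fewer in each BAT-Mito library.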

How the data were processed

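The study isolated mitochondria from brown adipose tissue by lysis and centrifugation. Its methods, which describe the procedure for heart, include trypsin, a homogenizer and, ahead of RNA extraction, digitonin with RNase A, and whether this treatment was the same for brown adipose tissue is not given in the sources used here. It prepared stranded total RNA libraries from small inputs and sequenced single ends. It adjusted the RNA fragmentation time of mitochondrial samples and gives none for the others. The submitters' processing notes name Trimmomatic 0.39, STAR 2.7.10a, featureCounts 2.0.2 and DESeq2 1.30.1, with build mm10. Reads of several positions or genes were left out. The deposited signal is a normalised count, since the authors scaled each library's gene counts with a size factor and rounded them, and 0 columns were left unmapped. They cover 17259 genes, of which 17099 (99.1%) have the same coordinates in GENCODE M21, from which exon lengths were taken. Columns of the authors' own comparisons were not used.

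Values were tested as log2(normalised count + 1) with limma 3.58.1 (R 4.3.3), two-sided with Benjamini-Hochberg adjustment at 0.05, for genes with a mean of at least 10 over the 4 libraries. edgeR 4.0.16 (quasi-likelihood) and DESeq2 1.42.0 were alternatives, run on recovered BAT-Mito reads with BAT-total values taken as reads. The main limma fit and the edgeR and DESeq2 fits were tested on simulated data, and the other settings named below were not. Depth was 26288871 and 24910434 reads in BAT-Mito and is unknown in BAT-total. Replicate ratios carry exact (Clopper-Pearson) 95% intervals of reads, for genes with at least 10 reads in both libraries together. The members and the lists were chosen with earlier results of these data known. The text names all members, the genes of each list with the most BAT-Mito reads (up to 4), with the highest BAT-total means (up to 2) or past the test (up to 6), and the 5 genes nearest to Fcna. A gene that this rule names is not reported here. Other pseudocounts, filters, scalings, a replicate block and leaving out each library were tried.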

Additional observations from a re-analysis of the deposited data

How the results depend on the processing

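Over all genes, 66 were called higher in BAT-Mito and 362 lower. With a pseudocount of 10 only 1 was called lower. Without a filter the counts were 143 and 3587, and with a mean of at least 50 lower calls fell to 11. With CPM over all genes they were 13 and 7963, by edgeR 135 were higher, and by DESeq2 189 were higher and 236 lower. Leaving out each library gave 0 to 622 higher and 0 to 3864 lower, where the lone library of a group is assumed to vary like the other group. With the replicate number as a block, 0 genes were called higher and 0 lower, over all genes and in both lists. Same-numbered replicates correlated at 0.112 in their deviations, and the labels share only a number. The complement genes had 2 higher calls without a filter, 1 by edgeR, 3 by DESeq2, 16 lower with CPM over all genes, and 0 to 13 higher and 0 to 4 lower with 1 library left out. The macrophage list had 2 higher calls without a filter, 1 by edgeR, 2 by DESeq2 and 0 to 9 with 1 library left out. Its lower calls were 0 with a pseudocount of 10, a mean of at least 50, edgeR or DESeq2, 9 without a filter, 33 with CPM over all genes and 0 to 6 with 1 library left out.

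The members' median of 1.83 was 1.29 with a pseudocount of 10, 2.15 with TMM, 2.43 with median ratios, 2.50 with CPM of nuclear protein-coding genes, 2.18 by edgeR, 2.23 by DESeq2 and 1.66 to 1.89 with 1 library left out. CPM over all genes, in which mitochondrial transcripts set the scale, turned it to -4.37. It turned Lyz2 to -5.95, C1qa to -4.29, C1qb to -4.56, C1qc to -3.84, Mrc1 to -4.11, Adgre1 to -4.46 and Cd163 to -4.13, while Fcna stayed at 0.37. There the median of all genes was -7.15, and the members lay 2.78 above it, against 3.06 as reported. Without BAT-Mito replicate 2, Lyz2 was -0.11. Members past the counting error between replicates numbered 1 of 6 with all reads as the reference (41.9% of 2651 genes) and 0 of 1 with at least 20 reads (52.4% of 1167 genes). Of the calls, 15.4% were higher, against 98.1% with a pseudocount of 10, 29.0% by edgeR and 44.5% by DESeq2.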
